A study of Mus musculus with 8 samples.

Results

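Open chromatin was examined at 10 genes of the CDK inhibitor and p53 pathways: the inhibitors Cdkn1a, Cdkn1b, Cdkn1c, Cdkn2a, Cdkn2b, Cdkn2c and Cdkn2d, and Trp53, Mdm2 and Rb1. Regions were assigned to these genes by position. A region was included when the summit of at least 1 of its peaks lay in the mm10 body of a listed gene or within 20 kb of it. The 8 peak lists were merged into 32730 regions, and 32 of these met the rule, holding 162 of 144372 peaks. Regions were numbered within each gene from the lowest to the highest coordinate. The windows of Cdkn2a and Cdkn2b overlap, and the 2 regions that fall in both are numbered under Cdkn2a.

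The cells were mouse acute myeloid leukaemia cells carrying the MLL-AF9 fusion and a TetO-Klf4 construct, from which Klf4 is expressed on doxycycline. GFP+ cells were sorted from leukaemic mice, the tissue is given as bone marrow and the strain as C57BL/7. ATAC-seq, in which a transposase cuts and tags accessible DNA, was performed on 2 libraries at each of 0h, 6h, 12h and 24h, and the time was the only labelled difference between groups. All 8 libraries carried both MLL-AF9 and TetO-Klf4, so no group without the construct was compared. The labels give neither the doxycycline dose nor whether the 0h cells had received it, and they do not tie libraries to mice. Any spread between the libraries of a time may therefore be technical.

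CDK inhibitors hold back the kinases that drive the cell through its cycle. The Cip/Kip proteins p21 (Cdkn1a), p27 (Cdkn1b) and p57 (Cdkn1c) bind cyclin-CDK complexes, whereas the INK4 proteins p16INK4a (Cdkn2a), p15 (Cdkn2b), p18 (Cdkn2c) and p19INK4d (Cdkn2d) bind CDK4 and CDK6. With these kinases restrained, the protein of Rb1 stays bound to E2F factors and S-phase genes stay off. Trp53 encodes p53, which switches on Cdkn1a and Mdm2, and Mdm2 in turn marks p53 for degradation. A second Cdkn2a transcript, Arf, encodes a protein that binds Mdm2 and spares p53. KLF4 is a zinc-finger factor that binds CACCC and GC-rich elements, and Cdkn1a is a classic KLF4 target.

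Cdkn1a and Cdkn2a each have a pair of annotated starts, and a region gained or lost between 0h and 24h lay over 1 start of each pair. The 250 bases before each of these starts are shown 5′ to 3′ along the gene, from RefSeq on GRCm38.p6, the assembly of mm10. Capitals in the first sequence, before the upstream Cdkn1a start (chr17:29090729-29090978, plus strand), mark a p53-type site. Capitals in the others mark 3 kinds of element: CACCC, the core that KLF factors bind and that reads GGGTG on the other strand, then the KLF4-type element GGGCGTG, and lastly the GC box, written GGGCGG. They precede the downstream Cdkn1a start (chr17:29093519-29093768, plus strand), the Arf start (chr4:89294620-89294869, minus strand) and the p16INK4a start (chr4:89282193-89282442, minus strand).
Cdkn1a, upstream start: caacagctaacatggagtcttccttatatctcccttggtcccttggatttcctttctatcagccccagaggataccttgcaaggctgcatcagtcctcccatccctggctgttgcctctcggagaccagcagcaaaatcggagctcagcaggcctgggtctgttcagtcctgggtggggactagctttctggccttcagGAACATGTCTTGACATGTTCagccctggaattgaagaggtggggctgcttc
Cdkn1a, downstream start: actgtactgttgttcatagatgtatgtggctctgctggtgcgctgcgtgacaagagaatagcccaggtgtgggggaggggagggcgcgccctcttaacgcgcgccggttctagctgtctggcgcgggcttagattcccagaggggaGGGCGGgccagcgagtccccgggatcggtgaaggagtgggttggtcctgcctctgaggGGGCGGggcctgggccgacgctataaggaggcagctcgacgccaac
Cdkn2a, Arf start: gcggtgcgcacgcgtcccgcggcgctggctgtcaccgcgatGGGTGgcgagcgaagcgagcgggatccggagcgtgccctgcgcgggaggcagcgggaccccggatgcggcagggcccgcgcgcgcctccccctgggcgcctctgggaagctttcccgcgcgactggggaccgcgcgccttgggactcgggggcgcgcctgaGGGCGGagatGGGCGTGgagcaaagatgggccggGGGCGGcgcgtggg
Cdkn2a, p16INK4a start: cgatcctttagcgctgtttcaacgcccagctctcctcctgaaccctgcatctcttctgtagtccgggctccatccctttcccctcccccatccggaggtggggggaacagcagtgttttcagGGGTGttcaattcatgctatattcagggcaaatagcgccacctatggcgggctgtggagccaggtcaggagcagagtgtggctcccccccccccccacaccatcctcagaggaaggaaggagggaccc

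Peak lists held 14826 to 21903 peaks per library. The 24h libraries had the fewest, and 0h replicate 2 had 15641. 0h replicate 2 also had the narrowest peaks, with a median width of 282 bp against 370 to 460 bp in the others. Sequencing totals were not used here, so the depth of each library was not read directly. The lowest local background of any peak was 0.494 and 0.188 tags (0h), 0.342 and 0.377 (6h), 0.416 and 0.359 (12h), and 0.352 and 0.372 (24h). This floor depends on the number of tags and on the caller's settings, and the 0h libraries were the least alike in it. Its part in any call was not tested. A missing peak means only that the signal did not pass the authors' threshold. A peak inside Klf4 was called in 8 of 8 libraries. All of them carried the TetO-Klf4 construct, and whether its tags add to this peak was not tested. Of 10 myeloid and leukaemia marker genes, 8 to 10 had a peak within 20 kb in each library. Other lineages had some too: 2 to 5 of 6 B-lineage genes (3 and 2 in the 24h libraries), 4 of 6 T and NK genes, and 3 or 4 of 6 erythroid genes in each library. Stromal and endothelial genes with a peak numbered 2 to 4 of 6 in the libraries of 0h, 6h and 12h, and 0 and 1 in the 24h libraries. No library had a peak near Ms4a1, Ncr1, Cd8a, Hbb-b1, Col1a2 or Kdr. In bulk sorted cells, fewer cells with a site open and less opening per cell cannot be told apart.

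Of 11 annotated starts of these genes, 6 lay in a region that was called in every library. Of the 32 regions, 14 had a peak in all 8 libraries (43.75%), against 9170 of 32730 regions in the series (28.0%). Among regions over an annotated start, 10 of 15 at these loci and 68.2% of 8331 in the series were called in all 8 libraries. Away from starts the shares were 4 of 17 at these loci and 14.3% of 24399. Cdkn1c and Rb1 have no start in the table used, so regions at an end of these genes count as away from starts. Rb1 region 5, 28 bp from the higher end of Rb1 and called in all 8 libraries, is 1 of the 4. Cdkn1c region 1 and Cdkn1a region 5, which lie at gene ends, are also among the 17. The 6 starts were those of Cdkn1b, Cdkn2b, Cdkn2c (1 of its 2), Cdkn2d and Mdm2 and the Arf start, whose own base was covered by a peak in 7 libraries. Of the other 18 regions, 8 appeared in 1 library, which is 25% of the 32, against 27.9% of all regions.

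**Figure D1:**
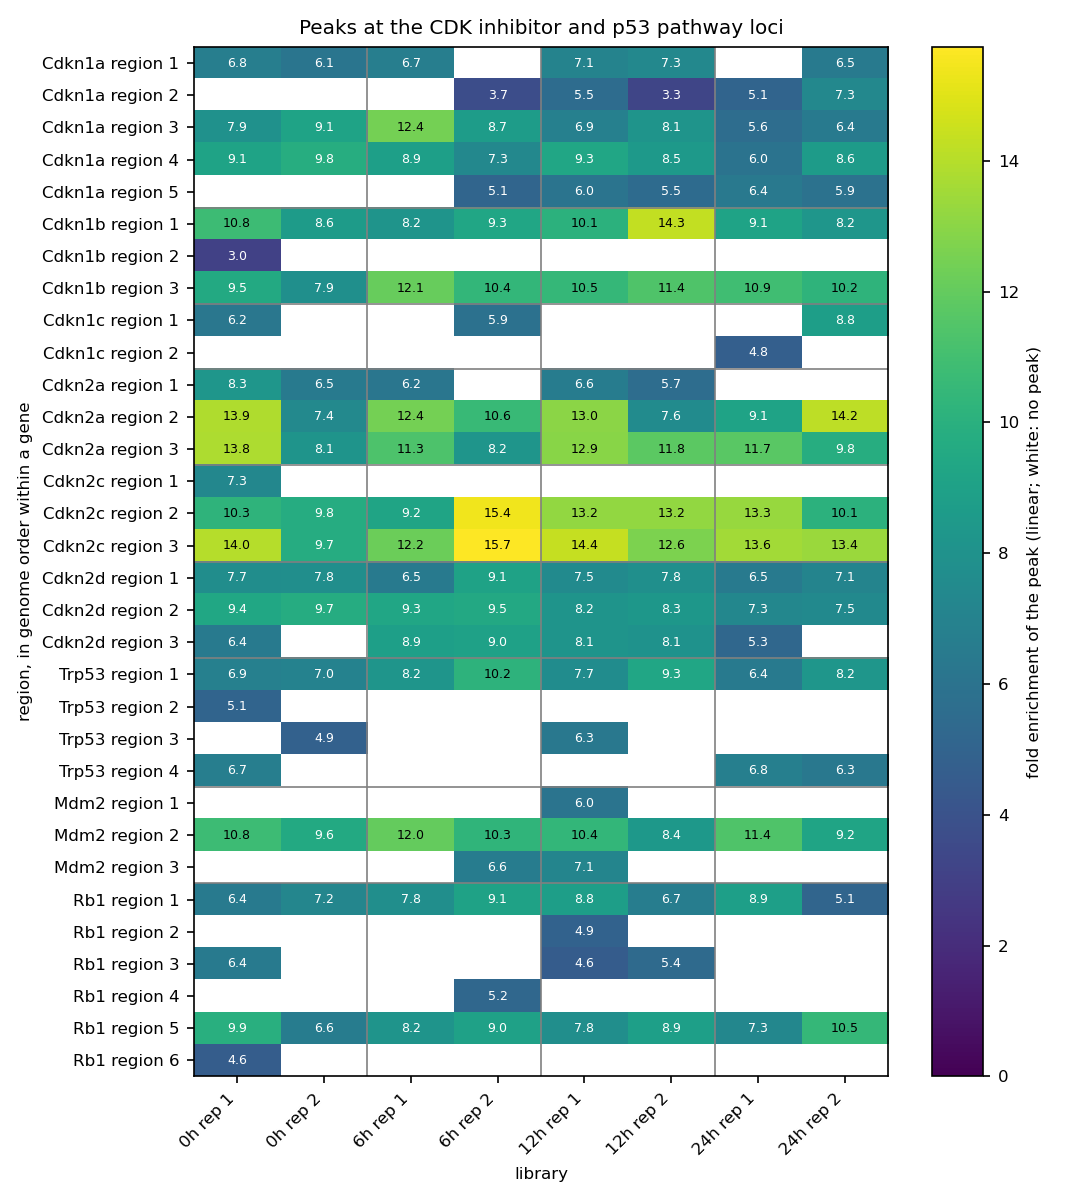
Fold enrichment (linear, the authors' ratio of summit pile-up to local background) of the strongest peak in each of the 32 regions, by library, with white cells where no peak was called. Cdkn1a regions 2 and 5 are white in both 0h libraries and in 6h replicate 1 and filled in the other 5 libraries, and Cdkn2a region 1 is white in both 24h libraries and in 6h replicate 2.

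Regions counted as gained had a peak in each library of the later time and in none of the earlier one, and lost regions the reverse. At 6h against 0h, 0 of the 32 regions were gained and 0 were lost, where 1.85% and 2.34% of all regions were. At 12h against 0h, 2 regions were gained (4.03% of all regions) and 0 were lost (1.45%). At 24h against 0h, 2 were gained (1.12% of all regions) and 1 was lost (4.43%). Both gained regions lay at Cdkn1a at either time, and these comparisons share the 0h libraries. The lost region lay over the p16INK4a start. Leaving out a library makes the rule easier to meet, and both the counts and their background then rose. Without 0h replicate 2, 6 regions were lost at 24h (21.5% of all regions), 6 at 12h (12.4%) and 6 at 6h (16.1%). The number lost at 24h was 2 without 0h replicate 1 (10.2%) and 2 without 24h replicate 2 (7.11%). The 2 gained at 12h became 4 without 0h replicate 1 (13.7%) and 6 without 12h replicate 2 (13.5%), and 4 were gained at 6h without 6h replicate 1 (7.52%). At 24h against 6h, 1 region near Trp53 was gained (0.972% of all regions) and 0 were lost (3.55%); without 6h replicate 2 the gained regions numbered 3 (2.72%). With 2 libraries a time, a two-sided exact permutation test cannot give a p under 0.333, so these calls carry no p-value.

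Cdkn1a, the gene of p21, had 5 regions, and a region over its downstream start was gained at 12h and 24h against 0h. Region 2 (chromosome 17, 29093606 to 29094090) covered that start at 29093769, and its strongest summit lay 81 bp before it. No peak was called there in either 0h library or in 6h replicate 1. Fold enrichment, a linear ratio given by the authors for each peak, was 3.72 in 6h replicate 2, 5.54 and 3.30 (12h), and 5.07 and 7.32 (24h). The 24h libraries were thus both called while neither 0h library was, and the weakest of the 5 peaks were those of 6h replicate 2 and 12h replicate 2.

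The pile-ups behind these peaks were 11, 26, 16, 20 and 30 tags in the same order of libraries, over a local background of 2.22, 3.87, 4.15, 3.14 and 3.23 tags. Their −log10 q was 2.78, 10.7, 3.15, 7.49 and 16. With peaks held to a −log10 q of at least 5, or with lists cut to an equal length of 14826 peaks, region 2 was no longer gained at 12h, and its gain at 24h remained. Both settings only take peaks away, so neither could add a peak at 0h. In the 3 libraries without a peak here, no value of the signal is given. The longest 0h list, with 21763 peaks, was 1 of these.

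The upstream Cdkn1a start, at 29090979, had no peak in any of the 8 libraries. The nearest region was region 2, 2627 bp away. The p53-type site shown in capitals lay outside every called region.

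Region 5 (29113888 to 29114446) had a peak in exactly the same 5 libraries as region 2. It lay 20342 bp beyond the downstream Cdkn1a start and 17 bp from the lower end of Rab44, a gene of the Rab GTPase family. Fold enrichment was 5.15 in 6h replicate 2, 6.05 and 5.52 (12h), and 6.39 and 5.91 (24h), on pile-ups of 11, 20, 16, 16 and 12 tags. Its folds varied less between libraries than those of region 2, from 5.15 to 6.39, and both gains of region 5 remained in lists of equal length and at the stricter q. Whether it belongs to Cdkn1a or Rab44 was not tested.

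The remaining Cdkn1a regions were already open at 0h. Region 3 (29094705 to 29095695), inside the gene with its strongest summit 1721 bp after the downstream start, was called in all 8 libraries. Its fold enrichment was 7.94 and 9.12 (0h), 12.4 and 8.70 (6h), 6.85 and 8.13 (12h), and 5.62 and 6.43 (24h). Ranked within each library over the 9170 regions called in all 8, it stood at percentiles 15.5 and 47.9 (0h), 75.2 and 26.9 (6h), 4.79 and 16.3 (12h), and 3.09 and 7.74 (24h). Both 24h ranks lay under both 0h ranks and both 6h ranks, while the neighbouring region 2 over the start had its peaks at 24h and none at 0h.

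Local background under region 3 was 3.91 and 1.08 tags at 0h and 3.45 and 3.35 (24h), and the pile-up was 38 and 18 tags at 0h and 24 and 27 (24h). The fold is a ratio of these values, and the part of each in the lower rank was not tested.

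Region 4 (29111221 to 29111853), 17699 bp after the downstream start, was also called throughout, with percentiles of 29.0 and 57.3 (0h) and of 5.03 and 27.6 (24h). Region 1 (29078760 to 29079366) lay 78 bp inside the higher end of Trp53cor1, a long noncoding RNA gene also known as lincRNA-p21. It had peaks in 6 libraries at folds of 6.14 to 7.32, absent from 6h replicate 2 and 24h replicate 1.

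**Figure D2:**
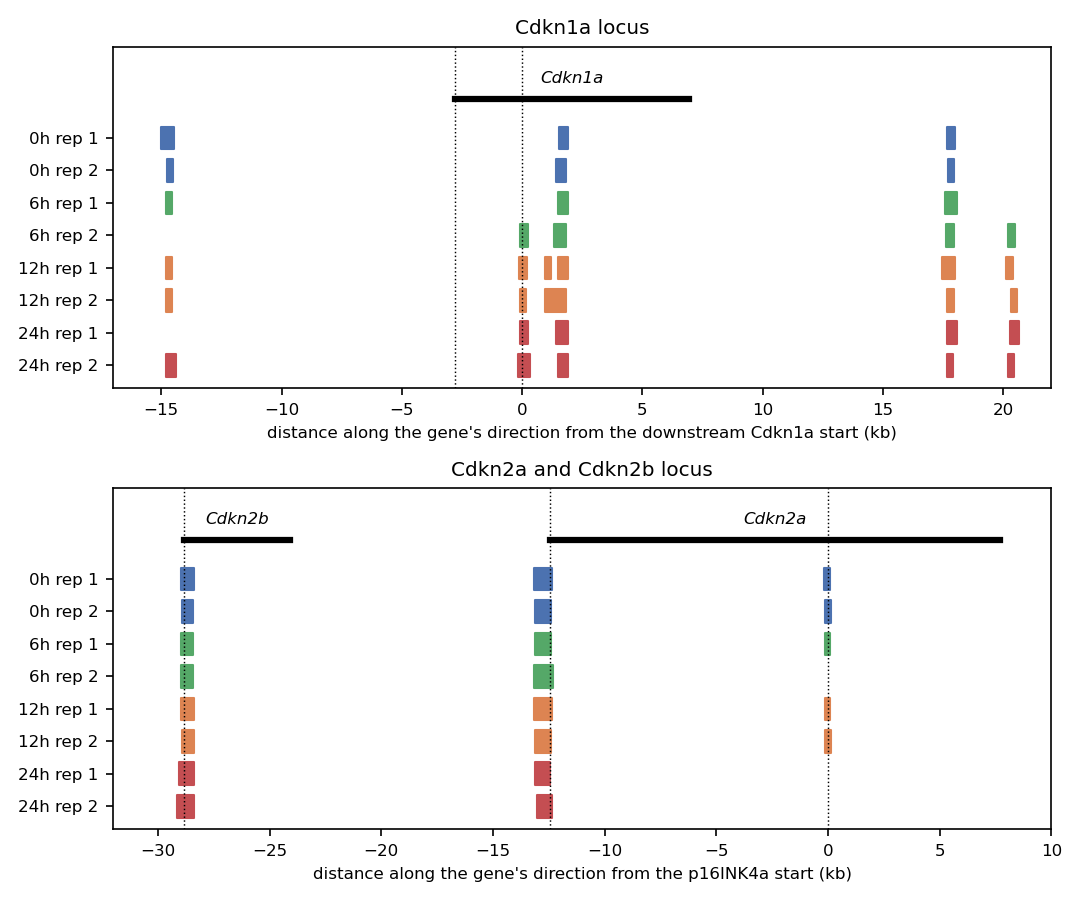
Called peaks at the Cdkn1a locus (top) and the Cdkn2a and Cdkn2b locus (bottom) in each library, by distance in kb along the gene from the downstream Cdkn1a start and from the p16INK4a start. Blocks are peaks to scale, black bars gene bodies and dotted lines annotated starts; the downstream Cdkn1a start carries blocks in 5 libraries from 6h on, the upstream start in none, and the p16INK4a start in none of the 24h libraries.

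The other Cip/Kip genes showed no gained or lost region. The Cdkn1b start lay in region 1 (chromosome 6, 134920010 to 134920996), where fold enrichment was 10.8 and 8.64 (0h), 8.16 and 9.32 (6h), 10.1 and 14.3 (12h), and 9.11 and 8.25 (24h). Among shared regions its percentiles were 52.9 and 41.5 (0h), 21.8 and 34.2 (6h), 36.4 and 91.0 (12h), and 36.9 and 23.6 (24h). The 6h and 24h pairs lay below the 0h pair without overlap, while the 12h libraries spanned it.

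Region 3 of Cdkn1b (134928117 to 134929154), with its strongest summit 379 bp from the start of the long noncoding RNA gene Lockd, stood higher at the later times. Its percentiles were 34.5 and 30.6 (0h), 71.0 and 48.5 (6h), 41.3 and 59.9 (12h), and 60.7 and 47.8 (24h). It was the only 1 of the 14 regions whose later pairs all lay above the 0h pair. Of all shared regions, 16.3%, 15.9% and 17.0% were higher than 0h at 6h, 12h and 24h. These comparisons share the 0h libraries, and the share of all shared regions that met them together was not counted. The folds of Cdkn1b region 3 were 9.54 and 7.85 at 0h and ran from 10.2 to 12.1 later. Folds of separate lists are not on a common scale.

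Cdkn1c, the gene of p57, had no region called in all libraries. Region 1 (chromosome 7, 143461004 to 143461302), 80 bp from the higher end of the gene, had a peak in 0h replicate 1 (fold 6.23), 6h replicate 2 (5.87) and 24h replicate 2 (8.83). Region 2, near Gm33663, was called in 24h replicate 1 alone.

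At the Cdkn2a and Cdkn2b locus, the starts of Arf and p15 kept their peaks and the p16INK4a start lost its peak at 24h. Region 1 (chromosome 4, 89282054 to 89282382) covered the p16INK4a start at 89282192, with its strongest summit 29 bp before it. Fold enrichment there was 8.27 and 6.45 (0h), 6.20 in 6h replicate 1, and 6.64 and 5.66 (12h). No peak was called in 6h replicate 2 or in either 24h library. The 0h and 24h pairs thus differed in presence, with the 12h pair still called and the 6h pair divided.

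These were small peaks. Pile-ups were 15, 7, 8, 9 and 7 tags in the libraries with a peak, over a local background of 0.239 to 0.935 tags, where the smallest pile-up of any peak in a library was 4 or 5. Their −log10 q ran from 5.07 to 11.1. The 24h lists were the shortest, at 15109 and 14826 peaks. The loss remained when all lists were cut to 14826 peaks and when −log10 q was held to at least 5. Both settings only take peaks away, so neither could add a peak at 24h. The stromal and endothelial markers also had fewest peaks at 24h, with summed folds of 29.7 and 16.6 (0h) and of 0 and 5.17 (24h). Summed folds of the myeloid and B-lineage markers were lowest at 24h too, at 165 and 170 and at 63.5 and 53.5. Those of the T and NK and the erythroid markers were not. The part of any cell type in the loss was not tested.

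The Arf start lay in region 2 (89294493 to 89295356), a peak in all 8 libraries that also covered the start of the long noncoding RNA gene Gm12610. Its fold was 13.9 and 7.41 (0h), 12.4 and 10.6 (6h), 13.0 and 7.60 (12h), and 9.12 and 14.2 (24h). The percentiles spread from 11.2 to 91.1, with libraries of a single time as far apart as 91.1 and 24.4 (0h), so no pair of times separated. The Cdkn2b start lay in region 3 (89310567 to 89311343), with folds of 13.8 and 8.13 (0h), 11.3 and 8.21 (6h), 12.9 and 11.8 (12h), and 11.7 and 9.79 (24h). Its pairs overlapped in all 4 comparisons as well.

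**Figure D3:**
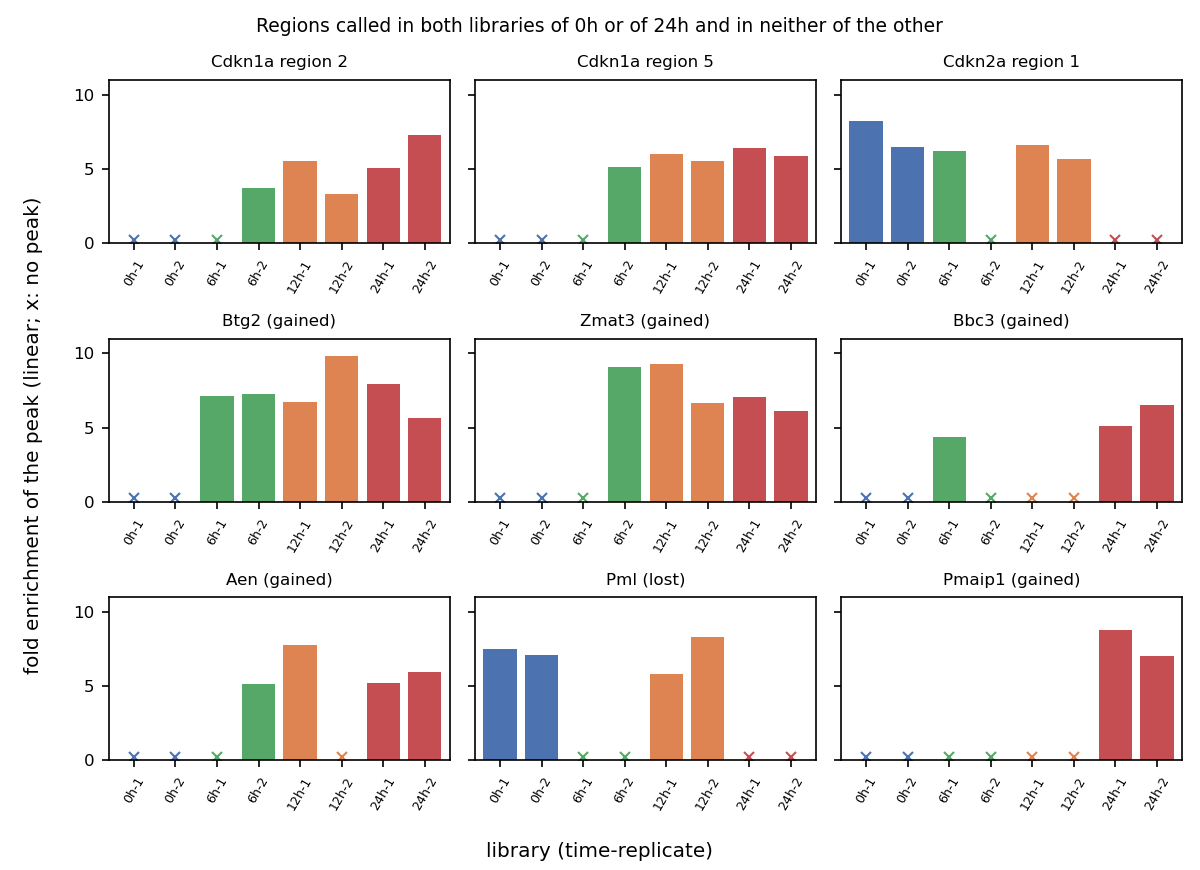
Fold enrichment (linear) in each library of the regions gained or lost at 24h against 0h at the 10 genes (top row) and near the genes of the p53 list (other rows), with a cross where no peak was called. Cdkn1a regions 2 and 5 and the Zmat3 region have bars in the same 5 libraries.

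Cdkn2c, the gene of p18, had the highest-ranked region of the 14. Region 3 (109676273 to 109677041), over the start of its neighbour Faf1, had a mean percentile of 81.7 and folds of 9.74 to 15.7. The start of Cdkn2c itself at 109666756 lay in region 2 (109665849 to 109667188), where fold enrichment was 10.3 and 9.78 (0h), 9.16 and 15.4 (6h), 13.2 and 13.2 (12h), and 13.3 and 10.1 (24h). Its percentiles were 45.1 and 57.0 (0h) and 77.3 and 81.8 (12h), without overlap. The 6h pair straddled the 0h pair, and the lower 24h value lay within it. A second annotated Cdkn2c start, at 109665372, had no peak over it.

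Cdkn2d, the gene of p19INK4d, ranked lower at 12h and 24h than at 0h at its own start. Region 2 (chromosome 9, 21290951 to 21291639) had folds of 9.39 and 9.74 (0h), 9.29 and 9.51 (6h), 8.15 and 8.35 (12h), and 7.29 and 7.48 (24h). Its percentiles were 32.5 and 56.5 (0h), 35.7 and 36.9 (6h), 13.7 and 18.4 (12h), and 15.7 and 16.1 (24h). The 12h and 24h pairs lay below both earlier pairs, and the 24h libraries differed from each other by less than the 0h libraries did.

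The pile-ups at the Cdkn2d start were 94 and 34 tags at 0h and 46 and 49 (24h), over a local background of 9.11 and 2.59 tags at 0h and 5.45 and 5.68 (24h). Region 1 (21287617 to 21288363), over the start of Kri1, was also lower at 12h and 24h, with percentiles of 13.4 and 29.3 (0h), 8.80 and 13.2 (12h) and 8.32 and 12.7 (24h). The highest value of 12h and 24h, 13.2, stood just under the lowest 0h value, 13.4, and the 6h pair, 6.40 and 31.4, spanned the 0h pair. Region 3, inside Ap1m2, was called in 6 libraries at folds of 5.25 to 8.98.

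The start of Trp53 itself had a peak in 1 library only. Region 2 (chromosome 11, 69580233 to 69580424) covered the start at 69580359 and was called in 0h replicate 1, with a fold of 5.09 and a pile-up of 19 tags. It also covered a start of Wrap53, the neighbouring gene that runs in the opposite direction. Its summit lay 31 bp from that Wrap53 start and 78 bp from the Trp53 start. Region 1 (69579046 to 69579543), 1025 bp before the Trp53 start, was called in all 8 libraries, and in 7 of them the peak covered another start of Wrap53. Its folds were 6.88 and 7.00 (0h), 8.24 and 10.2 (6h), 7.68 and 9.34 (12h), and 6.41 and 8.24 (24h).

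The percentiles of Trp53 region 1 were 7.12 and 19.0 (0h) and 22.6 and 45.3 (6h), without overlap, and the 12h and 24h pairs overlapped the 0h pair. Region 4 (69605546 to 69606263), 6 bp from the higher end of Atp1b2, was the region gained at 24h against 6h. It had folds of 6.78 and 6.29 (24h) and none at 6h or 12h, but a peak of 6.75 stood in 0h replicate 1, so it was not gained against 0h. Its gain no longer held when peaks had to share 50% of the shorter peak to be merged. Region 3, inside Trp53, was called in 0h replicate 2 and 12h replicate 1.

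At Mdm2, whose product degrades p53, the start at 117710758 was open in all 8 libraries. Region 2 (chromosome 10, 117709763 to 117710955) had folds of 10.8 and 9.56 (0h), 12.0 and 10.3 (6h), 10.4 and 8.40 (12h), and 11.4 and 9.18 (24h). Its percentiles were 52.9 and 54.1 (0h), 69.5 and 46.8 (6h), 40.1 and 19.0 (12h), and 66.9 and 34.3 (24h). The 12h pair lay below the 0h pair and the others straddled it. The other Mdm2 regions were called in 1 and 2 libraries.

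Rb1 spans 133094 bp and had the most regions, 6, of which 2 were called in every library. Region 5 (chromosome 14, 73325669 to 73326250) lay 28 bp from the higher end of the gene, with folds of 9.90 and 6.59 (0h), 8.18 and 9.01 (6h), 7.76 and 8.89 (12h), and 7.27 and 10.5 (24h). Region 1 (73175765 to 73176213), inside the neighbouring gene Rcbtb2, had folds of 5.11 to 9.08. Neither separated any pair of times. Region 3 (73237830 to 73239076), with its strongest summit 148 bp from the start of Lpar6, a receptor gene that lies within Rb1, had peaks of 6.40 in 0h replicate 1 and of 4.59 and 5.45 (12h). The other 3 regions were called in 1 library each.

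The 14 regions called in every library differed widely in rank. The median of their mean percentiles was 35.3, against 50.0 over all 9170 shared regions, and it ranged from 15.4 at Cdkn2d region 1 to 81.7 at Cdkn2c region 3. The spread between libraries was wide: the median gap between the libraries of a time was 20.6, 22.7, 13.7 and 19.3 percentile points at 0h, 6h, 12h and 24h, against 17.0, 13.7, 13.6 and 13.4 over all shared regions.

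A region was called higher or lower when the percentiles of the libraries of 2 times did not overlap. At 6h against 0h, 2 of 14 regions were higher (16.3% of all shared regions) and 1 was lower (15.7%). At 12h against 0h, 2 were higher (15.9%) and 4 were lower (16.9%), and at 24h against 0h, 1 was higher (17.0%) and 5 were lower (16.4%). At 24h against 6h, 0 were higher (17.2%) and 2 were lower (17.5%). With any 1 of these 4 libraries left out, 5 or 6 were lower (33.1% to 34.5% of all shared regions) and 1 to 4 higher (32.9% to 34.4%). At 24h against 0h, 8 were lower without 0h replicate 2 (33.2%), and 3 to 5 were higher with any 1 of the 4 libraries left out (31.4% to 36.0%). The 5 lower regions of 24h against 0h were Cdkn1a regions 3 and 4, Cdkn1b region 1 and Cdkn2d regions 1 and 2. The median difference in mean percentile over the 14 regions at 24h against 0h was -0.30 points, with 7 up and 7 down, beside -0.033 over all shared regions.

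**Figure D4:**
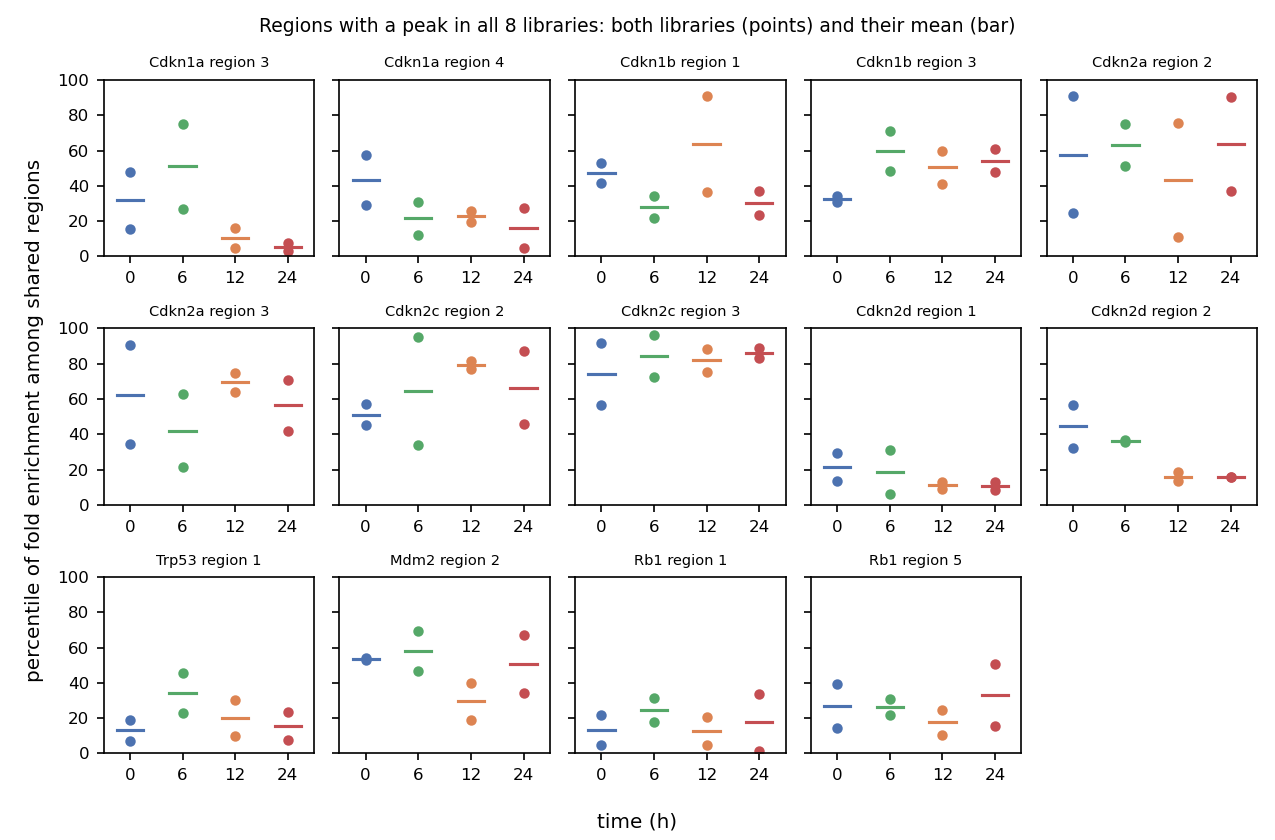
Percentile of fold enrichment among the 9170 regions called in all 8 libraries, by time in hours, for the 14 such regions at the 10 genes. Points are the 2 libraries of a time and bars their mean; Cdkn2d region 2 sits lower at 12h and 24h, Cdkn1a region 3 sits lower at 24h, Cdkn1b region 3 sits higher at every later time, and Cdkn2a region 2 spans most of the scale at 0h.

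Other genes of the p53 pathway were read with the same 20 kb window, from a list of 30 regulators and targets. Of these, 28 had at least 1 region, with 97 regions in all, 41 of them called in every library (42.3%). The share called in every library was 28.0% over all regions and 31.3% over those within 20 kb of a protein-coding gene. At 24h against 0h, 5 genes had a gained region and 1 a lost region, where 3.06% and 9.64% of 16027 protein-coding genes with a region did. Counted by region, 5 of the 97 were gained (5.15%) and 1 was lost (1.03%), against 1.12% and 4.43% of all regions. The list was chosen with earlier results of these data known, so these shares only describe it. Gained regions lay near Zmat3 and Btg2, which encode growth-restraining factors, near Pmaip1 and Bbc3, which encode the BH3-only killers Noxa and Puma, and near Aen, which encodes an apoptosis-enhancing nuclease. The lost region lay near Pml, the gene of the nuclear body protein. With lists of equal length, 6 genes of the list had a gained region, and at 5 kb 3 did (Aen, Pmaip1 and Zmat3). Over all protein-coding genes, 989 had a gained region with lists of equal length and 301 at 5 kb, against 491 under the reported rule. The 1 gene with a lost region became 9 without 0h replicate 2, 4 without 0h replicate 1, 3 without 24h replicate 1 or without 24h replicate 2, and 4 within 50 kb. The protein-coding genes with a lost region numbered 6091, 3102, 2576, 2599 and 2564 in the same order, against 1545.

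The Zmat3 region, 142 bp from an end of that gene, had peaks in the 5 libraries that also had Cdkn1a regions 2 and 5. Its folds were 9.09 in 6h replicate 2, 9.27 and 6.64 (12h) and 7.03 and 6.08 (24h). The Pmaip1 region, 2519 bp from that gene, had a peak only in the 24h libraries, with folds of 8.81 and 7.03. The Btg2 region was called in all 6 later libraries, from 5.65 to 9.83.

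For 4 of the 6 genes the nearest end of a protein-coding gene was that of another gene. The Btg2 region lay nearest to Fmod, the Bbc3 region to Ccdc9, the Aen region 384 bp from Isg20, and the Pml region 266 bp from Islr2. The gene such a region acts on was not tested. At 6h against 0h the list had 3 genes with a gained region (4.76% of protein-coding genes with a region) and 2 with a lost region (5.27%), and at 12h 4 (10.1%) and 1 (3.33%). At 24h against 6h, 2 genes had a gained region (2.65%) and 3 a lost region (8.27%; Bax, Tigar and Trp53bp1).

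In the RB and E2F arm, the 20 listed cyclins, kinases, pocket proteins, E2F factors and their regulators all had a region, 97 in all. Of these regions, 34 were called in every library (35.1%). The share was 28.0% over all regions and 31.3% over those within 20 kb of a protein-coding gene. At 24h against 0h, 0 of these genes had a gained region (3.06% of protein-coding genes with a region) and 4 had a lost region (9.64%): Ccnd2, Cdk4, Cdk6 and Rbl2. Counted by region, 5 of the 97 were lost (5.15%), against 4.43% of all regions, and 0 were gained, against 1.12%. At 12h against 0h, 4 had a gained region (10.1%; Cdk6, E2f1, Rbl1 and Tfdp1) and 2 a lost region (3.33%), and at 6h 1 (4.76%) and 2 (5.27%). At 24h against 6h, 0 had a gained region (2.65%) and 4 a lost region (8.27%). Cdk6, the gene of a kinase bound by INK4 proteins, had 2 lost regions inside its body, 1 of them with peaks in all 4 libraries of 0h and 6h and no later peak, at folds of 4.06 to 5.91. The Ccnd2 and Rbl2 regions also lay inside their genes, and the Cdk4 region lay 30 bp from an end of Agap2. With lists of equal length, 1 gene of this arm had a lost region (Cdk4; 818 protein-coding genes) and 1 a gained region (Cdk6; 989 protein-coding genes). Genes with a lost region numbered 12 without 0h replicate 2 and 9 without 0h replicate 1, and 4 had a gained region without 0h replicate 1 or without either of the 24h libraries in turn. Over all protein-coding genes, 6091 and 3102 had a lost region without these 0h libraries, and 2530, 1646 and 1656 a gained region without 0h replicate 1 and each 24h library.

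Sequence elements were counted in the 250 bases before to 50 bases after 11 starts of 8 of the 10 genes, on both strands. CACCC was found at 8 of 11 starts, against 57.5% of 32851 starts in the RefSeq table, and the GC box GGGCGG at 8 of 11, against 35.7%. Of the longer KLF4-type elements, GGGCGTG was found at 3 starts (Arf, Cdkn2c and Mdm2; 8.44% of all) and GGGTGTG at 0 (7.95%). GGGTGTG holds CACCC on the other strand, and at Cdkn2c GGGCGTG shared bases with GC boxes.

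The downstream Cdkn1a start had 2 GC boxes, at 104 and 46 bases before the start, and no CACCC, while the upstream start had 3 CACCC and no GC box. An E2F-type element was taken as TTTCCCGC or the variant TTTGGCGC or the variant TTTCGCGC or the variant TTTGCCGC. A single match was found, TTTCCCGC at 99 bases before the Arf start (2.26% of all starts hold 1 or more). The p53 full site, a pair of joined decamers, had no exact match at the 11 starts and 3 in the whole table. With at most 1 mismatch allowed, a search added after the data were seen, it matched at 29 starts in the table (0.0883%), and 1 of these was the upstream Cdkn1a start, 51 bases before it, as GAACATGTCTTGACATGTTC. Letters that match are a description and not evidence of binding, and no match says only that those letters are not in this window.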

How the data were processed

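ATAC-seq was deposited as 1 peak list per library for 8 libraries, so peaks were called per sample. Per the submitters' processing notes, BWA, SAMtools and MACS2 were used with the mm10 build; for versions, settings, read shifting and duplicate handling, the sources used here give nothing. The fold enrichment of each peak, a linear ratio with 1 added to pile-up and background, and its −log10 p and −log10 q were deposited by the authors, as was an integer score that was not used. The lowest deposited −log10 q was 2.00. Folds of separate lists are not on a common scale, so they served to describe and rank peaks within a list.

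Autosomal (19 chromosomes), X and Y peaks were merged where they overlapped by at least 1 bp. The 20 kb windows used gene bodies of the RefSeq table of GRCm38.p6, which lacks strand, and starts came from its promoter table. Cdkn1c and Rb1 had no start there. Summit pile-up and local background were recovered from fold and −log10 p, within 0.001, for 160 of 160 pairs of a region and a library. Percentiles were ranked within each library over the regions called in all 8. Gained, lost, higher and lower followed fixed rules with no test. The code of the gained and lost rule was run on simulated lists with regions built to meet it. Such a run checks the code only and gives no rate of false calls in these data. Python 3.11.15, pandas 2.3.3, NumPy 2.4.6, SciPy 1.17.1 and matplotlib 3.10.9 were used.

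Groups and replicate numbers came from the labels. For each of the 10 genes, the text names the region at or nearest to the start, every gained or lost region, and the highest-ranked shared region away from a start; from the lists, genes with a gained or lost region at 24h. The genes and lists were chosen with earlier results of these data known. Alternatives were a stricter q, lists of equal length, 50% sharing, other windows and each library left out in turn.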

Additional observations from a re-analysis of the deposited data

How the results depend on the processing

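A missing peak gives no value of the signal. The count of 32 regions became 21 within 5 kb. At 12h against 0h, 1 region was gained at −log10 q of at least 5 (4.79% of all regions), with equal lists (2.69%) and within 5 kb (4.03%). With equal lists 1 was lost (2.31%). At 24h against 0h, 1 was gained within 5 kb (1.12%), and 4 were higher within 50 kb (17.0% of all shared regions). At 24h against 6h, 3 were gained at the stricter q (1.03%) and with equal lists (2.3%). Gained regions numbered 0 with 50% sharing (0.927%) and 0 within 5 kb (0.972%). In the same comparison 1 was lost at the stricter q (3.56%), and 2 were higher within 50 kb (17.2%). At 6h against 0h, 2 were lower within 50 kb (15.7%). Under these settings 76 counts stayed within 1.5 times of the reported count and 14 did not. With each library left out in turn, the count of regions ran from 28 to 33, and the 14 called in every library stayed at 14. Gained, lost, higher and lower ran from 0 to 4, 0 to 6, 2 to 6 and 1 to 4 at 6h against 0h; from 2 to 6, 0 to 6, 2 to 4 and 3 to 8 at 12h against 0h; from 2 to 3, 1 to 6, 1 to 5 and 5 to 8 at 24h against 0h; and from 1 to 3, 0 to 2, 0 to 4 and 2 to 6 at 24h against 6h. Leaving out a library of a compared time also raised the shares over all regions. These then ran from 1.86% to 21.5% for gained and lost regions. For higher and lower they then ran from 30.6% to 37.3% of all shared regions. The highest lost counts against 0h came without 0h replicate 2. No paired analysis was possible because the results are counts by a rule, with no test or fit that a replicate block could enter, and the labels tie no replicate number to a mouse or batch.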

Other observations

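The presence of Cdkn1a regions 2 and 5, with peaks in 6h replicate 2 and in all 12h and 24h libraries only, was seen in 40 of 32730 regions (0.122%). By mean percentile of fold within the lists, region 5 stood 31 and region 2 stood 38 among these 40, so both were among the weaker regions with this presence. The strongest lay 43972 bp from Usp40, 35 bp from Zfp3 and 4 bp from Tomm22. The presence of the p16INK4a region, absent from 6h replicate 2 and both 24h libraries, was seen in 115 regions (0.351%), among which it stood 72. The strongest of these lay 19 bp from Zfp169, 195954 bp from an end of Adamtsl1 and 75900 bp from an end of Map3k20.

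The 29 starts that held the p53 full site with at most 1 mismatch included those of Cdkn1a, Ccng1, Gtse1 and Rps27l, which are known p53-regulated genes. The names were picked after the matches were seen.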
